A study of Mus musculus with 12 samples.

Results

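The ionotropic glutamate receptor subunits Gria1, Gria2, Gria3, Gria4, Grin1 and Grin2b and the auxiliary subunit Cacng8 were followed across 12 Affymetrix expression arrays of the mouse hippocampal CA1 subfield. They were chosen by name, as all probe sets whose single gene symbol in the platform annotation was 1 of these 7 genes. Of the 7 genes, 6 were measured, by 9 probe sets among 22690 on the array: 2 probe sets each for Gria1, Gria2 and Grin2b, and 1 each for Gria3, Gria4 and Cacng8. The annotation used listed no probe set with Grin1, the obligatory NMDA receptor subunit, as its single symbol, and Grin1 was not analysed here.

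Excitatory synapses of CA1 pyramidal neurons use glutamate, which opens AMPA receptors for fast transmission and NMDA receptors when the cell is already depolarised. AMPA receptors are tetramers of the subunits encoded by Gria1 to Gria4, and the presence of an edited Gria2 subunit makes the channel nearly impermeable to calcium. NMDA receptors pair Grin1 with subunits such as Grin2a and Grin2b and admit calcium. Cacng8 encodes TARP gamma-8, a transmembrane partner of AMPA receptors that is abundant in the hippocampus and governs how many receptors reach the surface. CA1 neurons are known for their delayed death after a brief stop of forebrain blood flow.

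The 4 groups were SUMO-KD mice after transient forebrain ischemia, SUMO-KD mice after sham surgery, wild-type mice after ischemia and wild-type mice after sham surgery, with 3 arrays each. SUMO-KD denotes transgenic mice in which the small ubiquitin-like modifier, a protein attached to other proteins, is knocked down; the promoter of the transgene, the strain, the age and the sex are not given in the labels. Ischemia lasted 10 min and tissue was taken at 3 h of reperfusion, and each array held RNA pooled from 2 mouse brains. Whether the pools differ in anything beyond the animals is not stated.

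The deposited values were linear intensities, with a median over all probe sets of 141 to 162.3 per array and 22.4 to 28.6% of probe sets below 32. Tests were run with limma on log2(intensity + 32) over 12394 genes, each by its brightest probe set, and a gene was called at a Benjamini-Hochberg adjusted p under 0.05. Sumo3, 1 of the genes for SUMO proteins, ranged from 1879 to 1936 in SUMO-KD ischemia and from 1337 to 1689 in SUMO-KD sham, against 3245 to 3518 in wild-type ischemia and 2247 to 2467 in wild-type sham, so its probe set was lower in SUMO-KD within each surgery. The 18S ribosomal RNA 5′ control probe set read 1275 to 1660 on 5 of the 6 ischemia arrays and 4194 to 6528 on the 6 sham arrays. The remaining ischemia array, SUMO-KD ischemia replicate 2, read 4127 and stood apart. Values without it are given for Gria1, Gria2 and Rest and for the Cacng8 mean response. Other SUMO-KD ischemia values are not listed separately without it. That array was also the lowest SUMO-KD ischemia array for both probe sets of Gria1 and of Gria2.

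Levels of the receptor genes spanned most of the array's range. The brighter probe sets of Gria2 and Gria1 averaged 6385 and 4010 intensity units over the 12 arrays, at the 98.5th and 96.7th percentile of all probe sets. Gria3 averaged 1134 units (85.5th percentile), Cacng8 averaged 103 units (43.4th percentile), Gria4 averaged 56.5 units (34.3rd percentile) and the brighter Grin2b probe set averaged 53.3 units (33.5th percentile). Intensities of different probe sets depend on their probes, so these percentiles place each probe set on the array and do not rank the genes by transcript number. The Gria4 and Grin2b values lie close to the offset of 32, which shrinks their changes on the test scale.

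**Figure D1:**
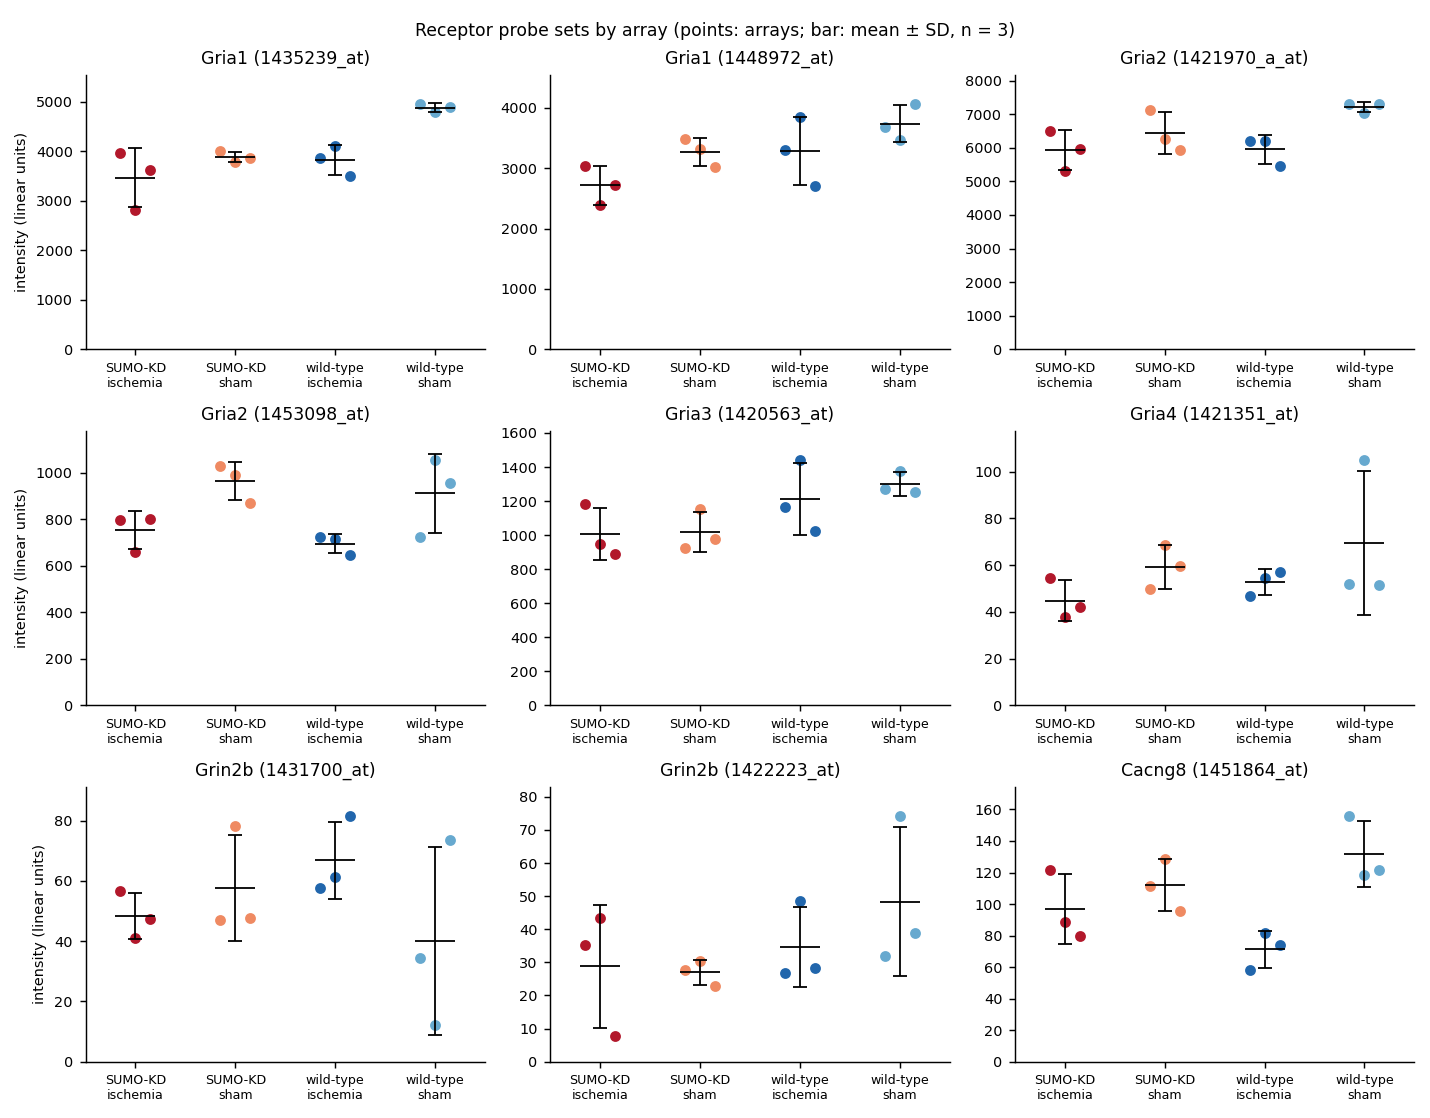
Intensity (linear units, axes from 0) of the 9 probe sets in each array, in 4 groups of 3 arrays; points are arrays, the long bar is the mean and the whiskers are 1 SD. The wild-type sham arrays of Gria1 (1435239_at), at 4780 to 4952, sit above all arrays of the other 3 groups, and the wild-type ischemia arrays of Cacng8, at 58.1 to 81.4, sit below all wild-type sham arrays.

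Cacng8 was the receptor gene with a called change after ischemia in wild-type CA1. Its probe set read 58.1, 81.4 and 74.1 in wild-type ischemia, against 156, 118 and 121 in wild-type sham. The 2 groups did not overlap, and every ischemia array lay below every sham array. Mean intensity was 71.2 ± 11.9 after ischemia and 132 ± 20.7 after sham surgery (SD, n = 3 each), a log2 change of -0.67 (SE 0.15, limma adjusted p = 0.009). Under all 25 alternative settings the change was called, between -0.89 and -0.53 on the log2 scale.

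In SUMO-KD CA1, Cacng8 read 122, 88.5 and 80 after ischemia, against 112, 129 and 95.9 after sham surgery. These groups overlapped, and the log2 change was -0.17 (95% interval -0.49 to 0.15, limma adjusted p = 0.548). The difference between the SUMO-KD and wild-type responses was 0.50 on the log2 scale (SE 0.21), with an unadjusted p of 0.0348 and an adjusted p of 0.796 over all genes, so a difference between genotypes was not established. SUMO-KD minus wild-type was 0.31 after ischemia (adjusted p = 0.338) and -0.18 after sham surgery (adjusted p = 0.636). Averaged over both genotypes, the ischemia response was -0.42 (SE 0.10, limma adjusted p = 0.0113), and it was -0.40 (adjusted p = 0.0297) without SUMO-KD ischemia replicate 2.

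Markers of some non-neuronal cells were also lower after ischemia in both genotypes. The summed level of 6 measured microglial markers was 4043 to 4460 in SUMO-KD ischemia and 5292 to 5521 in SUMO-KD sham, against 4075 to 4377 in wild-type ischemia and 5120 to 5645 in wild-type sham, and 3 of the 6 fell in each genotype. Of 6 endothelial and 5 oligodendrocyte precursor markers, 2 each fell in each genotype, and the sums of 6 oligodendrocyte markers, at 29260 to 35420 over the 12 arrays, overlapped between ischemia and sham in wild-type and were higher after ischemia in SUMO-KD. The sums of 7 astrocyte markers, at 17660 to 23820, and of 8 interneuron markers, at 13820 to 17850, overlapped between ischemia and sham in both genotypes. Of the 8 interneuron markers 3 fell in wild-type and limma called 0 in SUMO-KD, where 0 had an unadjusted p under 0.05. Of the 7 astrocyte markers 1 rose in wild-type and limma called 0 in SUMO-KD, where 3 had an unadjusted p under 0.05. Beside these marker counts, limma called 8.88% of all genes lower and 9.60% higher after ischemia in wild-type, and 4.62% and 6.09% in SUMO-KD. Between genotypes after sham surgery the astrocyte sums did not overlap, at 22030 to 23820 in SUMO-KD and 17660 to 21650 in wild-type. There limma called 2 of the 7 astrocyte markers higher in SUMO-KD, where 2.10% of all genes were called in either direction. After ischemia the astrocyte sums of the genotypes overlapped. The part of these cell markers in the Cacng8 change, or in the Gria1 and Gria3 differences between genotypes, was not tested.

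Gria1, the AMPA subunit most studied for activity-driven insertion at synapses, was at its highest in wild-type sham tissue. Its brighter probe set, 1435239_at, read 3972, 2802 and 3614 in SUMO-KD ischemia, 3995, 3781 and 3866 in SUMO-KD sham, 3857, 4107 and 3496 in wild-type ischemia and 4952, 4780 and 4894 in wild-type sham. All 9 arrays of the other groups lay below the lowest wild-type sham array. The second probe set, 1448972_at, gave group means of 2719 ± 320, 3274 ± 233, 3286 ± 568 and 3741 ± 300 in the same order (SD, n = 3 each), and there the groups overlapped except SUMO-KD ischemia and wild-type sham.

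In wild-type CA1 the brighter Gria1 probe set differed by -0.35 between ischemia and sham on the log2 scale (SE 0.12, 95% interval -0.61 to -0.09, limma adjusted p = 0.0607). The value missed the threshold, and it passed without SUMO-KD ischemia replicate 2 (adjusted p = 0.0179) or replicate 1 (adjusted p = 0.0404). It also passed with an offset of 64, with genes of a mean intensity of at least 100, with array weights and with a trended robust variance, at adjusted p between 0.0267 and 0.0459. In SUMO-KD CA1 the difference was -0.18 (adjusted p = 0.416), and it was -0.03 (adjusted p = 0.914) without SUMO-KD ischemia replicate 2. Over both genotypes the mean response was -0.27 (SE 0.08, limma adjusted p = 0.0363), which was called. That call was lost on leaving out any of 9 of the 12 arrays (all but wild-type ischemia replicate 2 and SUMO-KD ischemia replicates 1 and 3), with adjusted p-values up to 0.0783. Without SUMO-KD ischemia replicate 2 the mean response was -0.19 (adjusted p = 0.0567). The second Gria1 probe set gave a mean response of -0.23 with no call (adjusted p = 0.102 over the probe sets). The interaction was 0.17 on the log2 scale (95% interval -0.19 to 0.54).

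SUMO-KD minus wild-type for Gria1 was -0.33 after sham surgery (95% interval -0.59 to -0.07, unadjusted p = 0.0181, limma adjusted p = 0.228) and -0.15 after ischemia (adjusted p = 0.589). The 3 SUMO-KD sham arrays lay below the 3 wild-type sham arrays, while the ischemia groups overlapped. The call threshold was not reached in either surgery.

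Markers of CA1 pyramidal neurons moved in the same comparisons as Gria1. Of 7 listed markers 4 were measured, and their summed intensity was 3840 to 5491 in SUMO-KD ischemia, 3876 to 6493 in SUMO-KD sham, 4182 to 6181 in wild-type ischemia and 8119 to 10880 in wild-type sham. All 9 arrays of the other groups lay below the lowest wild-type sham array. None of the 4 was near 0, and the dimmest, Man1a, averaged 1192 over the 12 arrays. Wfs1, a CA1 marker that encodes a protein of the endoplasmic reticulum, differed by -0.60 between ischemia and sham in wild-type (adjusted p = 0.0206) and by -0.87 between SUMO-KD and wild-type after sham surgery (adjusted p = 0.0145). Pou3f1, a transcription factor, differed by -0.80 after ischemia in wild-type (adjusted p = 0.0468), and Man1a, a Golgi mannosidase, by -0.85 between SUMO-KD and wild-type after sham surgery (adjusted p = 0.0333).

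These 3 markers were named after their values were seen. By their brightest probe sets no CA1 marker was called between ischemia and sham in SUMO-KD or between genotypes after ischemia. A second Man1a probe set, at a mean of 323.9, was higher after ischemia in SUMO-KD by 0.65 (limma adjusted p = 0.0153 over the probe sets), where the brightest gave 0.41 (adjusted p = 0.179). The Wfs1 calls were lost without wild-type sham replicate 1, and further without wild-type ischemia replicate 3 for the ischemia response or SUMO-KD sham replicate 3 for the genotype difference, with adjusted p up to 0.0824. The Pou3f1 call was lost in 9 of 12 leave-outs, with adjusted p up to 0.165. The Man1a call was lost in 5 of 12, with adjusted p up to 0.139. Summed levels of 8 general neuron markers overlapped between all groups: 32310 to 34980 in SUMO-KD ischemia, 30570 to 34330 in SUMO-KD sham, 32840 to 35330 in wild-type ischemia and 32820 to 35990 in wild-type sham. Of 7 measured markers of CA3 or dentate neurons, the neighbouring subfields, the summed level was 3269 to 4083 in SUMO-KD ischemia and 4649 to 5402 in SUMO-KD sham, against 3591 to 4580 in wild-type ischemia and 4322 to 5581 in wild-type sham. The part of these neuronal markers in the Gria1 values was not tested, and in dissected tissue fewer cells of a type and less RNA per cell cannot be told apart.

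Gria2, the subunit that sets calcium permeability, gave the brightest of the receptor probe sets. Its probe set 1421970_a_at read 6501, 5323 and 5961 in SUMO-KD ischemia, 7126, 6248 and 5947 in SUMO-KD sham, 6202, 6209 and 5462 in wild-type ischemia and 7297, 7041 and 7304 in wild-type sham. In wild-type every ischemia array lay below every sham array, and in SUMO-KD the groups overlapped. The log2 difference between ischemia and sham was -0.28 in wild-type (SE 0.10, limma adjusted p = 0.084, but 0.0334 with a trended robust variance) and -0.12 in SUMO-KD (adjusted p = 0.544), and the mean response was -0.20 (SE 0.07, adjusted p = 0.0631). Without SUMO-KD ischemia replicate 2 the SUMO-KD difference was -0.04 and the mean response -0.16.

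The second Gria2 probe set, 1453098_at, read 799, 661 and 803 in SUMO-KD ischemia, 1029, 991 and 871 in SUMO-KD sham, 725, 716 and 647 in wild-type ischemia and 725, 1054 and 956 in wild-type sham. Its SUMO-KD ischemia arrays all lay below the SUMO-KD sham arrays, and in wild-type the highest ischemia array lay just below the lowest sham array. Its log2 differences were -0.34 in SUMO-KD (SE 0.14) and -0.36 in wild-type (SE 0.14), with adjusted p-values over 20393 probe sets of 0.157 and 0.1. Its mean response over both genotypes was -0.35 (SE 0.10, limma adjusted p = 0.0208 over the probe sets). The brighter probe set, at 0.0631, also passed for the mean response with an offset of 64, genes of a mean intensity of at least 100, quantile normalization, a trended robust variance, array weights or without SUMO-KD ischemia replicate 1, at adjusted p between 0.024 and 0.0471. The brighter probe set stayed uncalled in 17 of the 25 alternatives, with adjusted p up to 0.144. Gria2 was also called by the mean of its probe sets (-0.27, limma adjusted p = 0.0177). Without shared probe sets, which leaves the dimmer one, it was called too (-0.35, limma adjusted p = 0.0194). Whether the Gria2 mean response was called by the brighter probe set therefore depended on the setting.

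The genotypes did not differ detectably in Gria2. SUMO-KD minus wild-type was -0.17 after sham surgery (95% interval -0.39 to 0.06, adjusted p = 0.517) and -0.01 after ischemia (95% interval -0.23 to 0.21, adjusted p = 0.977). The dimmer probe set gave 0.09 and 0.11 for the same comparisons, so the sign depended on the probe set.

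Within each array the log2 value of Gria2 minus that of Gria1, by their brighter probe sets, averaged 0.78 ± 0.12 in SUMO-KD ischemia and 0.72 ± 0.11 in SUMO-KD sham, against 0.64 ± 0.04 in wild-type ischemia and 0.56 ± 0.01 in wild-type sham (SD, n = 3 each). The wild-type ischemia arrays, at 0.59 to 0.68, lay above the wild-type sham arrays, at 0.56 to 0.57. The SUMO-KD groups overlapped. A within-array difference shows unequal change of 2 probe sets and does not give the ratio of the subunits.

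Transcription of Gria2 is known to be restrained by the repressor REST, which binds a DNA element called RE1 and recruits the corepressor CoREST, encoded by Rcor1. RefSeq's table of the GRCm38.p6 build held a window of 250 bases before and 50 after a start site for 4 of the 7 genes (Gria2, Gria4, Grin1 and Cacng8). A 16-letter RE1 consensus was searched on both strands, and it matched the Gria2 window, with its first base 170 bases before the start, and none of the other 3. The consensus was chosen after the Gria2 sequence had been read. Of all 32851 windows, 21 held a match, or 0.0639%. The 250 bases before the start, at chr3:80802836-80803085 on the minus strand, are shown because they hold that match, which is in capitals and reads on the strand opposite to Gria2.
Gria2: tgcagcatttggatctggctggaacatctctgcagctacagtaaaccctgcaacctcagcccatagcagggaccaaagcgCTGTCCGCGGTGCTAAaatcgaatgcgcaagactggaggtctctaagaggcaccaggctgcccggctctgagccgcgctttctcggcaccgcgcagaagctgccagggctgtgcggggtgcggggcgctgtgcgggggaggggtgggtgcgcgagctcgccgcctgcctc
The match spans chr3:80802990-80803005. The annotated Gria2 gene extends past this stretch, to position 80804227, so a longer gene model starts upstream of it. Further motifs were searched on both strands of the same windows: TGACGTCA, the CRE, TGANTCA, the AP-1 site, and GGGCGG, the GC box. None of them matched in the Gria2, Gria4 or Cacng8 window, and the GC box matched in that of Grin1; over all windows they occurred in 1.79%, 7.81% and 35.7%. A match is a run of letters and not a measured binding site.

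Rest rose after ischemia in both genotypes. Its brightest probe set read 192, 267 and 208 in SUMO-KD ischemia, 112, 146 and 123 in SUMO-KD sham, 287, 348 and 230 in wild-type ischemia and 137, 108 and 107 in wild-type sham. Ischemia and sham arrays did not overlap in either genotype. The log2 change was 0.67 in SUMO-KD (SE 0.16, limma adjusted p = 0.0181) and 1.09 in wild-type (SE 0.16, limma adjusted p = 0.000749), and the interaction was -0.42 (adjusted p = 0.844).

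The SUMO-KD call of Rest was lost without SUMO-KD ischemia replicate 2 (0.55, adjusted p = 0.0791), SUMO-KD sham replicate 1 (0.60, adjusted p = 0.0727) or SUMO-KD sham replicate 3 (0.66, adjusted p = 0.0559). The other Rest probe sets were dim, at mean intensities of 30.1 and 2.07, and differed in wild-type by -0.03 and -0.05. With the mean of the 3 probe sets the change was 0.23 in SUMO-KD (adjusted p = 0.118) and 0.34 in wild-type (adjusted p = 0.0167).

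Rcor1 averaged 540 ± 105 in SUMO-KD ischemia and 333 ± 22.6 in SUMO-KD sham, against 571 ± 60.8 in wild-type ischemia and 385 ± 78.2 in wild-type sham (SD, n = 3 each). Its log2 change was 0.63 in SUMO-KD (limma adjusted p = 0.0272) and 0.54 in wild-type (limma adjusted p = 0.0351). Leaving out any of 5 arrays ended the call in SUMO-KD (adjusted p up to 0.111) and any of 5 ended it in wild-type (adjusted p up to 0.129), and its second probe set gave 0.58 and 0.37 with no call. Its remaining probe set was called in both, at 0.71 in SUMO-KD (limma adjusted p = 0.00736 over the probe sets) and 0.48 in wild-type (limma adjusted p = 0.033). Adarb1, the enzyme that edits the Gria2 transcript, differed by -0.07 in SUMO-KD (adjusted p = 0.825) and 0.12 in wild-type (adjusted p = 0.638), and was named outside the rule. Rest and Rcor1 were the 2 of 11 measured genes of Gria2 editing and transcription called in either genotype. Limma called 6.09% of all genes higher in SUMO-KD and 9.60% in wild-type. Over both genotypes 4 of the 11 rose, where 12.8% of all genes were called higher. Sp1 averaged 419 in SUMO-KD ischemia and 306 in SUMO-KD sham, against 453 in wild-type ischemia and 342 in wild-type sham. Nrf1 averaged 139, 89.2, 146 and 100 in the same order. Both were on this list and named after their values were seen. Whether the Rest and Gria2 values are linked was not tested.

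**Figure D2:**
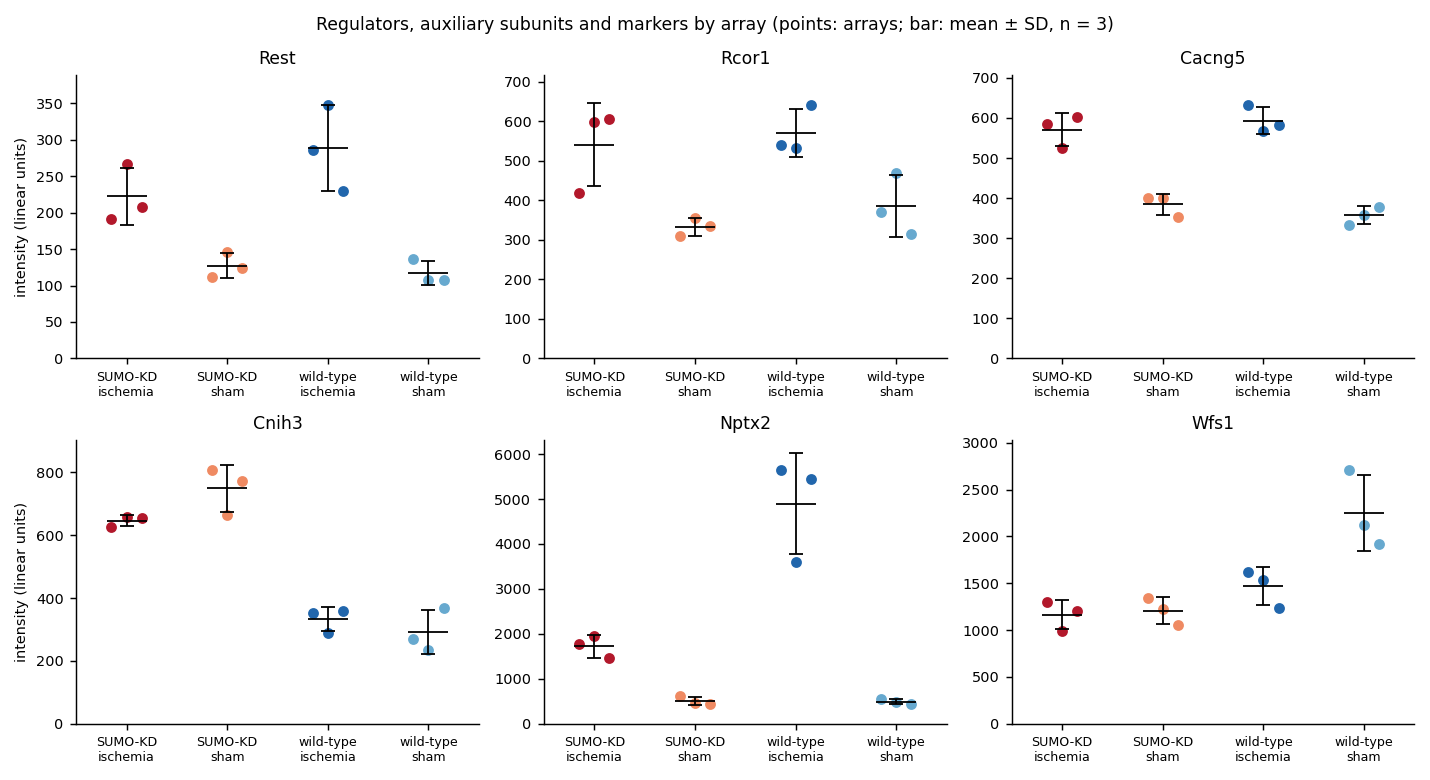
Intensity (linear units, axes from 0) of the brightest probe set of Rest, Rcor1, Cacng5, Cnih3, Nptx2 and Wfs1 in each array, in 4 groups of 3 arrays; points are arrays, the long bar is the mean and the whiskers are 1 SD. Rest and Cacng5 arrays lay higher after ischemia than after sham surgery in both genotypes, Cnih3 lay at 627 to 807 in SUMO-KD against 234 to 370 in wild-type, and Wfs1 was highest in wild-type sham.

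Gria3, an X-linked AMPA subunit that pairs mostly with Gria2, gave no call. It read 1181, 947 and 889 in SUMO-KD ischemia, 925, 1153 and 979 in SUMO-KD sham, 1168, 1440 and 1027 in wild-type ischemia and 1269, 1379 and 1253 in wild-type sham. The SUMO-KD sham arrays lay below all wild-type sham arrays, and the ischemia groups overlapped. SUMO-KD minus wild-type was -0.35 after sham surgery (95% interval -0.66 to -0.04, unadjusted p = 0.0308, limma adjusted p = 0.293) and -0.26 after ischemia (adjusted p = 0.419). Ischemia minus sham was -0.02 in SUMO-KD (95% interval -0.33 to 0.29) and -0.11 in wild-type (95% interval -0.42 to 0.20).

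Gria4, an AMPA subunit prominent in interneurons, was dim. It read 54.5, 37.6 and 41.9 in SUMO-KD ischemia, 49.7, 68.5 and 59.6 in SUMO-KD sham, 46.7, 54.3 and 57.2 in wild-type ischemia and 51.8, 105 and 51.3 in wild-type sham. All 4 groups overlapped, and wild-type sham replicate 2 lay far above its 2 partners. Ischemia minus sham was -0.25 in SUMO-KD (adjusted p = 0.439) and -0.22 in wild-type (adjusted p = 0.445), and without wild-type sham replicate 2 the wild-type value was 0.02 (adjusted p = 0.947). SUMO-KD minus wild-type was -0.15 after ischemia (adjusted p = 0.747) and -0.12 after sham surgery (adjusted p = 0.826).

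Grin2b, the NMDA subunit with slow channel closure, was measured near the bottom of the array's range. Its brighter probe set, 1431700_at, read 56.6, 41.2 and 47.4 in SUMO-KD ischemia, 47.1, 78.1 and 47.8 in SUMO-KD sham, 57.8, 61.3 and 81.4 in wild-type ischemia and 34.6, 12 and 73.7 in wild-type sham. The wild-type sham arrays spanned the values of all other groups but 2 arrays, and the 3 SUMO-KD ischemia arrays lay below the 3 wild-type ischemia arrays. Ischemia minus sham was -0.14 in SUMO-KD (adjusted p = 0.801) and 0.54 in wild-type (95% interval -0.02 to 1.10, adjusted p = 0.178). Without wild-type sham replicate 3 the wild-type value was 0.86 and was called (limma adjusted p = 0.0197).

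The second Grin2b probe set, 1422223_at, pointed the other way in wild-type. It averaged 28.8 ± 18.6 in SUMO-KD ischemia and 27 ± 3.74 in SUMO-KD sham, against 34.5 ± 12.1 in wild-type ischemia and 48.3 ± 22.6 in wild-type sham (SD, n = 3 each). Its ischemia minus sham difference was -0.01 in SUMO-KD and -0.25 in wild-type (adjusted p = 0.553). The 2 probe sets disagreed in sign, and no direction is given for Grin2b.

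Counts over the 6 measured genes were read against all 12394 genes. After ischemia in wild-type, 0 of the 6 rose and 1 fell (Cacng8), where limma called 9.60% of all genes higher and 8.88% lower. The members' median log2 change was -0.25, against -0.04 over all genes. When each array was centred on its median, 988 genes were called higher and 1426 lower in this comparison, against 1190 and 1101 without centring. Of the 6, 3 (Gria1, Gria2 and Cacng8) were lower in all 3 ischemia arrays than in all 3 sham arrays, as were 19.5% of all genes.

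In SUMO-KD, limma called 0 of the 6 after ischemia, and 0 of the 6 had an unadjusted p under 0.05; 6.09% of all genes were called higher and 4.62% lower. None of the 6 was lower in all ischemia arrays, against 15.9% of all genes, and the median change was -0.16 against -0.02. Over both genotypes 2 of the 6 fell (Gria1 and Cacng8) and 0 rose, where 14.0% of all genes were called lower and 12.8% higher.

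Between genotypes limma called 0 of the 6 after sham surgery, where Gria1 and Gria3 had an unadjusted p under 0.05 and 2.10% of all genes were called in either direction. Gria1 and Gria3 were lower in all SUMO-KD sham arrays, as were 9.68% of genes. After ischemia limma called 0 of the 6, with 0 at an unadjusted p under 0.05, against 1.56% of all genes called in either direction. By its brighter probe set Grin2b was lower in all SUMO-KD arrays, as were 8.91% of genes. Its second probe set overlapped there, at 7.83 to 43.4 in SUMO-KD and 26.9 to 48.4 in wild-type. The interaction called 0 of the 6, with Cacng8 at an unadjusted p under 0.05, and 0.0161% of all genes (2 genes, with 766 at an unadjusted p under 0.05).

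**Figure D3:**
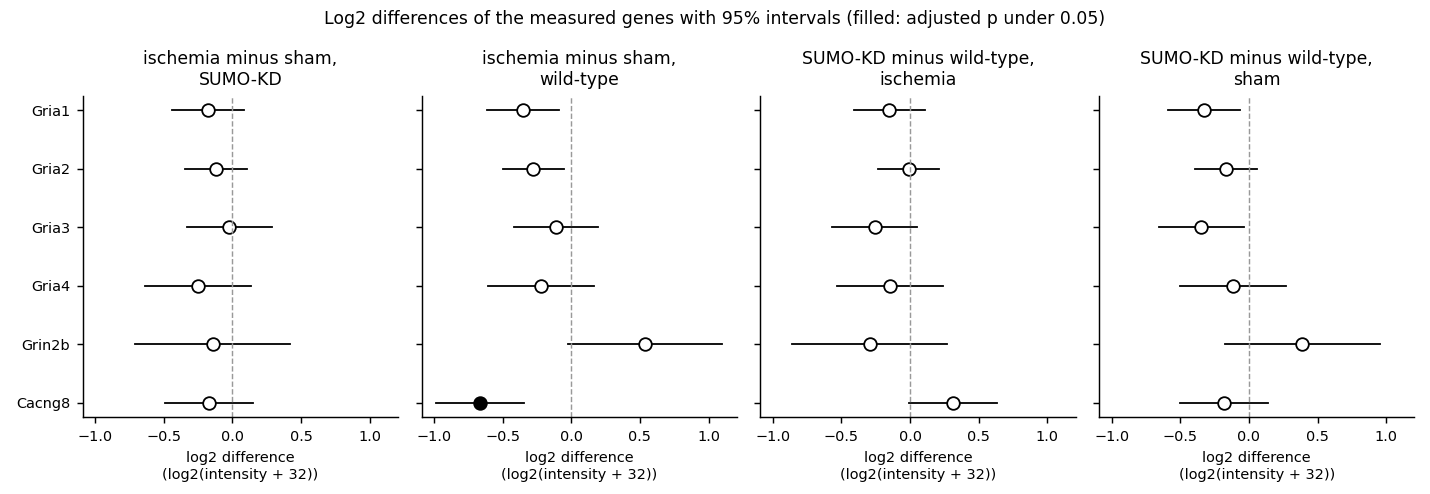
Log2 differences (log2(intensity + 32) scale) of the 6 measured genes in 4 comparisons, each by its brighter probe set, with 95% intervals; a filled point marks a limma adjusted p under 0.05. The Cacng8 difference in wild-type, -0.67, is the single filled point.

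A wider list of glutamate receptor genes gave no call in the comparisons within 1 genotype or within 1 surgery. It takes in Gria1 to Gria4 and Grin2b again, and its kainate and delta genes include the auxiliary gene Neto1. Over the 4 AMPA subunits, the 5 measured of 7 NMDA subunits, the 6 measured of 9 kainate and delta genes and the 1 measured of 8 metabotropic receptors, limma called 0 of these 16 genes in each of the 4 comparisons. At an unadjusted p under 0.05 stood 1 of the 16 in SUMO-KD ischemia, 4 in wild-type ischemia, 1 between genotypes after ischemia and 3 after sham surgery. Over all genes 24.1%, 31.3%, 15.5% and 14.2% stood there in the same order. Gria1 and Gria2 were among the 4, and Gria1 and Gria3 among the 3. Limma called 6.09% of all genes higher and 4.62% lower in SUMO-KD ischemia, and 9.60% and 8.88% in wild-type ischemia. Between genotypes it called 1.56% in either direction after ischemia and 2.10% after sham surgery. Grin2a, an NMDA subunit that matures channel kinetics, differed by 0.33 after ischemia in wild-type (unadjusted p = 0.0271, adjusted p = 0.105) and by -0.52 between SUMO-KD and wild-type after ischemia (unadjusted p = 0.002, adjusted p = 0.0816). Grid1, a delta subunit, differed by -0.36 in SUMO-KD (unadjusted p = 0.0476) and by -0.42 in wild-type (unadjusted p = 0.0237). Over both genotypes, 1 of the 16 rose and 2 fell, where limma called 12.8% of all genes higher and 14.0% lower. Grin2a rose by 0.28 (limma adjusted p = 0.0452), and Grid1 fell by 0.39 (limma adjusted p = 0.0257), beside the fall of Gria1. The Grin2a call was lost in 9 of 12 leave-outs, with adjusted p up to 0.103, and the Grid1 call in 5 of 12, with adjusted p up to 0.0629. Grin2a and Grid1 were singled out after their values were seen. Both were dim, with mean intensities over all arrays of 48.3 for Grin2a and 78.1 for Grid1. Grin2a group means ran from 29.8 in SUMO-KD sham to 72.2 in wild-type ischemia. These Grin2a values lie close to the offset, as do those of Gria4 and Grin2b, so its differences are read with the same caution.

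Among 10 measured of 16 AMPA auxiliary subunits and assembly factors, 1 rose and 2 fell after ischemia in wild-type, and 1 rose in SUMO-KD. Over all genes the shares were 9.60% higher and 8.88% lower in wild-type and 6.09% higher and 4.62% lower in SUMO-KD. Cacng5, encoding the partner TARP gamma-5, rose in both: 585, 524 and 602 in SUMO-KD ischemia, against 399, 399 and 354 in SUMO-KD sham, and 632, 567 and 581 in wild-type ischemia, against 334, 358 and 379 in wild-type sham. Its log2 change was 0.53 in SUMO-KD (SE 0.09, limma adjusted p = 0.00334) and 0.69 in wild-type (SE 0.09, limma adjusted p = 0.000447). A second Cacng5 probe set at a mean of 17.4 did not show it (0.04 and -0.13), and the mean of both probe sets gave 0.29 and 0.28 with adjusted p-values of 0.179 and 0.148.

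The 2 that fell in wild-type were Cacng8 and Porcn, an acyltransferase that also takes part in AMPA receptor assembly. Porcn averaged 726 ± 107 in wild-type ischemia and 985 ± 68.2 in wild-type sham (SD, n = 3 each), a log2 change of -0.43 (limma adjusted p = 0.0322). The Porcn call was lost without any of 5 wild-type arrays, with adjusted p up to 0.113. In SUMO-KD Porcn differed by -0.24 (limma adjusted p = 0.288 over the probe sets), and its mean response, -0.34, was called in all 12 leave-outs. Cnih2, the cornichon partner of AMPA receptors in hippocampal pyramidal cells, gave -0.40 in wild-type (adjusted p = 0.0859) and -0.52 between SUMO-KD and wild-type after sham surgery (adjusted p = 0.113); it was singled out after its values were seen.

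Cnih3, a second cornichon, was the auxiliary subunit that separated the genotypes, and was singled out after its values were seen. It read 627, 658 and 655 in SUMO-KD ischemia, 807, 666 and 774 in SUMO-KD sham, 353, 290 and 359 in wild-type ischemia and 271, 234 and 370 in wild-type sham. Every SUMO-KD array lay above every wild-type array. SUMO-KD minus wild-type was 0.90 after ischemia (SE 0.14, limma adjusted p = 0.0114) and 1.29 after sham surgery (SE 0.14, limma adjusted p = 0.00073). The ischemia value was 0.89 with an adjusted p of 0.0539 without SUMO-KD ischemia replicate 3. Ischemia minus sham was -0.20 in SUMO-KD (adjusted p = 0.457) and 0.19 in wild-type (adjusted p = 0.399).

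Of 18 measured of 24 trafficking and anchoring genes, 2 rose and 2 fell after ischemia in wild-type, and 2 rose and 1 fell in SUMO-KD, beside 9.60% higher and 8.88% lower of all genes in wild-type and 6.09% and 4.62% in SUMO-KD. Nptx2, a secreted pentraxin that clusters AMPA receptors, averaged 1724 ± 252 in SUMO-KD ischemia and 499 ± 93.6 in SUMO-KD sham, against 4897 ± 1120 in wild-type ischemia and 484 ± 54.8 in wild-type sham (SD, n = 3 each). It rose by 1.73 in SUMO-KD and 3.23 in wild-type on the log2 scale. SUMO-KD minus wild-type was -1.47 after ischemia (limma adjusted p = 0.00237). A second Nptx2 probe set, at a mean of 87.81, gave smaller values: 0.82 in SUMO-KD (adjusted p = 0.053 over the probe sets), 1.35 in wild-type (limma adjusted p = 0.00265) and -0.63 between genotypes after ischemia (adjusted p = 0.261). The interaction was -1.50 (unadjusted p = 0.000113, limma adjusted p = 0.176).

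Arc, which drives AMPA receptor endocytosis, averaged 4364 ± 533 in SUMO-KD ischemia and 388 ± 75.3 in SUMO-KD sham, against 6504 ± 672 in wild-type ischemia and 1079 ± 224 in wild-type sham (SD, n = 3 each). It rose by 3.40 in SUMO-KD and 2.57 in wild-type on the log2 scale, and SUMO-KD minus wild-type was -1.40 after sham surgery (limma adjusted p = 0.00146). Its interaction was 0.82 (limma adjusted p = 0.645).

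Dlg3, the scaffold SAP102, fell by 0.40 on the log2 scale in wild-type (limma adjusted p = 0.00653) and was named after its values were seen. In SUMO-KD it differed by -0.19 (limma adjusted p = 0.2 over the probe sets), and its interaction was 0.20 (adjusted p = 0.902). Its mean response, -0.30, was called in all 12 leave-outs. Lrrtm1, a postsynaptic adhesion protein, gave no single direction: its brightest probe set gave -0.61 in SUMO-KD (limma adjusted p = 0.0399) and -0.93 in wild-type (limma adjusted p = 0.00287), while its dimmest gave 0.89 and 1.06 (limma adjusted p = 0.0209 and 0.0054 over probe sets). The SUMO-KD call of its brightest probe set was lost in 7 of 12 leave-outs, with adjusted p up to 0.154.

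Shank3 was the 1 of 5 measured of 12 postsynaptic density scaffolds that was called. Over all genes limma called 4.62% lower after ischemia in SUMO-KD and 8.88% in wild-type. Shank3 averaged 1122 ± 100 in SUMO-KD ischemia and 1493 ± 57.6 in SUMO-KD sham, against 1260 ± 76.8 in wild-type ischemia and 1613 ± 124 in wild-type sham (SD, n = 3 each). It fell by 0.41 in SUMO-KD (limma adjusted p = 0.0185) and by 0.35 in wild-type (limma adjusted p = 0.0252). Each call was lost without any of 4 arrays of its own genotype, with adjusted p up to 0.081 and 0.0963, and the mean response of -0.38 was called in all 12 leave-outs.

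Of 23 measured of 28 kinases, phosphatases and calcium effectors, 1 rose and 4 fell after ischemia in wild-type, and 1 rose and 1 fell in SUMO-KD, where all genes gave 9.60% higher and 8.88% lower in wild-type and 6.09% and 4.62% in SUMO-KD. Dapk1, a death-associated kinase that acts on NMDA receptors, fell by 0.65 in wild-type (limma adjusted p = 0.000495), with intensities of 718 ± 14.8 in ischemia and 1147 ± 27.9 in sham (SD, n = 3 each). In SUMO-KD it differed by -0.26 (limma adjusted p = 0.101 over the probe sets), and its interaction was 0.39 (adjusted p = 0.702). Its mean response, -0.46, was called in all 12 leave-outs. Capn1, the calcium-activated protease calpain-1, fell by 0.52 in wild-type (limma adjusted p = 0.0238), and that call was lost in 4 of 12 leave-outs with adjusted p up to 0.0916. In SUMO-KD Capn1 differed by -0.05, and its interaction was 0.47 (limma adjusted p = 0.841 over the probe sets).

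Camk2d, a calcium/calmodulin-dependent kinase subunit, rose by 0.60 in wild-type (limma adjusted p = 0.0051) and fell by 0.41 in SUMO-KD (limma adjusted p = 0.0469), and the interaction was -1.01 (limma adjusted p = 0.146). The SUMO-KD call was lost in 10 of 12 leave-outs, with adjusted p up to 0.144, and the mean of its probe sets gave -0.11 there (adjusted p = 0.624). It averaged 196 ± 21 in SUMO-KD ischemia and 272 ± 18.5 in SUMO-KD sham, against 217 ± 18.9 in wild-type ischemia and 134 ± 24.1 in wild-type sham (SD, n = 3 each).

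The remaining calls of this list were named after their values were seen. Prkcb, a protein kinase C, and Rasgrf1, a Ras activator that binds NMDA receptors, gave -0.33 and -0.29 in wild-type (limma adjusted p = 0.0245 and 0.0302), and these calls were lost in 3 and 4 of 12 leave-outs, with adjusted p up to 0.0941 and 0.106. In SUMO-KD Prkcb and Rasgrf1 gave -0.04 and -0.15 (limma adjusted p = 0.847 and 0.353 over the probe sets). Rasgrp1, a further Ras activator, gave 0.87 in SUMO-KD (limma adjusted p = 0.00161) by its brightest probe set, but 0.24 by the mean of its probe sets (adjusted p = 0.111) and -0.04 without shared probe sets (adjusted p = 0.932), so no direction is given. Camk2d, Camk2g, Prkacb and Nos1 were higher in SUMO-KD than in wild-type after sham surgery, by 0.88, 0.47, 0.55 and 0.54 on the log2 scale (limma adjusted p = 0.00254, 0.0442, 0.0161 and 0.0497). The Camk2g, Prkacb and Nos1 calls were lost in 10, 4 and 10 of 12 leave-outs, with adjusted p up to 0.183, 0.0826 and 0.194. The mean of their probe sets gave 0.25 for Prkacb (adjusted p = 0.346) and 0.15 for Nos1 (adjusted p = 0.741).

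Among the receptor probe sets, the brighter ones of Gria1 and Gria2 had the highest Pearson's r over the 12 arrays, 0.899, and an r of 0.816 after each group's mean was removed. After that removal the second Gria1 probe set with the brighter Gria2 probe set had the highest r, 0.83. The 2 Gria1 probe sets had an r of 0.872, the 2 Gria2 probe sets 0.634 and the 2 Grin2b probe sets -0.431. Cacng8 had an r of 0.674 with Gria2 and 0.33 after removal of the group means. Arrays are shared by all of these values, so they are descriptions.

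The genes most like each receptor gene were taken from 6557 genes with a mean intensity of at least 200, by Pearson's r over the 12 arrays on the log2 scale. Gria1 was most like St6galnac5 (r = 0.971), Chn1 (0.955) and Myt1l (0.944). Gria2 was most like Camta2 (r = 0.989), Dynll1 (0.96) and Slc24a3 (0.952). Gria3 was most like Kcnk2 (r = 0.899), Crim1 (0.892) and Kif3a (0.892). These are descriptions, since the 12 arrays share 4 groups and a highest value out of 6557 is high by selection.

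Of the dim genes, Cacng8 was most like Tubb4a (r = 0.937), Mrpl24 (0.927) and Cuta (0.919). Gria4 was most like Ephx2 (r = 0.905), Carhsp1 (0.872) and Rad21 (0.858), and Grin2b was most like Ube3a (r = 0.863), Prkd1 (0.836) and Lgi4 (0.82).

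By the GRCm38.p6 gene table the measured genes lie on 6 chromosomes: Gria1 at chr11:57011571-57330244, Gria2 at chr3:80681450-80804227, Gria3 at chrX:41400819-41678601, Gria4 at chr9:4417893-4796234, Grin2b at chr6:135713221-136173615 and Cacng8 at chr7:3394042-3416266. The table gives gene spans, and the exons the probe sets match were not used here.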

How the data were processed

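RNA of 12 pooled CA1 samples was amplified, biotin-labelled and hybridised to Affymetrix arrays, per the labels' protocols. The deposited table gives a linear intensity for each probe set on each array. Partek 6.6 and RMA are named in the submitters' processing notes, but RMA output is on a log2 scale and these values are linear. How they were made was not given in the sources used here. No detection call was used.

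Probe sets were named through the platform annotation: 20393 of 22690 had 1 symbol, 691 several and 1606 none listed. Group means were fitted in all 12 arrays with limma 3.58.1 in R 4.3.3 on log2(intensity + 32), with Benjamini-Hochberg adjustment over 12394 genes; offsets of 0, 16 and 64 were alternatives. Precision is limited by the number of arrays. On data simulated for wild-type ischemia, the fit called 15, 41, 50 and 50 of 50 genes changed by 0.5, 1, 2 and 3 on the log2 scale, and 8 of 12194 unchanged genes. The simulation changed 200 genes, while 2291 were called in the data. The adjustment is stricter with fewer changed genes, so these counts are not detection rates for the data.

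The members, gene lists and offset were chosen with earlier results of these data known. Named from each list were up to 3 called genes with the largest change in wild-type ischemia, and for each member the 3 genes of highest correlation; others, among them the CA1 markers and Adarb1, were named after their values were seen. Same-numbered replicates deviated with correlations of -0.166 to 0.248. Replicates of unlike number were not compared, so these values cannot tell whether the numbers pair samples. The labels do not state a pairing. The most alike arrays correlated at 0.99339, and no 2 arrays held identical values.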

Additional observations from a re-analysis of the deposited data

How the results depend on the processing

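For the 6 measured genes, 36 values were recomputed under 25 alternatives, 12 of them leaving out 1 array: of 888 values 839 kept direction and side of the threshold, 10 lost a call, 16 gained a call and 23 turned sign. The cause was not tested. After ischemia in wild-type, 1 member was called, against 2 with an offset of 64, a mean intensity of at least 100 or array weights, 3 with a trended robust variance, and 1 to 2 on leaving out an array. For the mean response 2 were called, against 1 with offset 0, 3 (Gria2 added) with every probe set, the mean of probe sets, no shared probe sets, an offset of 64, a mean intensity of at least 100, quantile normalization, a trended robust variance or array weights, and 1 to 3 on leaving out an array. The Cacng8 calls held in all 25. In the other comparisons 0 members were called under any alternative.

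Signs turned for Gria2 between genotypes after sham surgery without shared probe sets (0.0905) and after ischemia with the mean of probe sets (0.0489) or without shared probe sets (0.107), for Gria4 after sham surgery with array weights (0.0264), for Grin2b after sham surgery with the mean of probe sets (-0.0112), and in the interaction for Gria3 with array weights (-0.0787) and Gria4 with quantile normalization (0.0034). Leaving out an array gave -0.34 to 0.0179 for Gria4 in wild-type ischemia, -0.14 to 0.0673 for Gria3 and -0.226 to 0.0124 for Grin2b in SUMO-KD ischemia, -0.24 to 0.12 for Gria4 between genotypes after sham surgery, -0.0778 to 0.0657 for Gria2 between genotypes after ischemia, and -0.0283 to 0.218 for Gria3 and -0.27 to 0.0881 for Gria4 in the interaction. The mean of probe sets turned Lrrtm1 to 0.0417 in SUMO-KD and 0.0022 in the mean response; leaving out shared probe sets turned Rasgrp1 to -0.0384 in SUMO-KD and -0.222 in the mean response. A fit of the compared groups alone ended calls of Porcn, Shank3, Capn1, Prkcb, Rasgrf1, Rcor1, Wfs1 and Man1a, among others.

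Over all genes, calls between genotypes moved with offset 0, a fit of the compared groups alone and array weights, to 156, 130 and 461 after sham surgery (260 in the main setting) and 95, 48 and 331 after ischemia (193). Leaving out an array gave 112 to 270 and 60 to 209; for ischemia it gave 763 to 1409 in SUMO-KD (1328) and 1548 to 2308 in wild-type (2291), and for the interaction 0 to 5 (2), against 1 without shared probe sets and 0 with offset 0. Median centring gave 1347 higher and 2280 lower calls for the mean response, against 1581 and 1731. With the replicate number as a block, members called were again 1 in wild-type, 2 for the mean response and 0 elsewhere, and calls over all genes were 2297 in wild-type, 1297 in SUMO-KD, 257 and 180 between genotypes and 1 for the interaction. Values near the offset of 32, as for Gria4 and Grin2b, limit what could be detected.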
